A study of Rattus norvegicus with 11 samples.

Results

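The genes of the major histocompatibility complex (MHC) and of antigen presentation were examined in rat bladder tissues with and without partial bladder outlet obstruction (PBOO). They were chosen by symbol alone: 36 genes whose symbol starts with RT1-, the name of the MHC in the rat, and 19 genes that supply, load, transcribe or accompany MHC molecules, together 55 of the 18507 genes listed. By role they comprised 2 class Ia chains, 24 class Ib chains, 1 class I light chain, 6 genes of peptide loading, 5 of the immunoproteasome, 10 class II chains, 2 genes for the invariant chain and its protease, 2 transactivators and 3 costimulatory genes. RNA sequencing of whole bladder tissue from adult female Sprague-Dawley rats gave 3 PBOO and 3 normal samples at week 4, and 2 PBOO and 3 normal samples at week 5. In PBOO rats a suture was tied around the bladder neck and urethra over a tube that was then drawn out, while the controls, labelled normal, had an abdominal incision only. Expression was given as FPKM, the fragment count of a gene scaled by its length and by the sequencing depth. The labels number the samples without naming animals, so the p-values measure only the spread between these samples.

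MHC class I molecules consist of a heavy chain (the RT1 class I genes) and the light chain beta-2 microglobulin, and they show peptides from the inside of a cell to cytotoxic T cells. Those peptides are cut by the proteasome, whose interferon-inducible form is the immunoproteasome, carried into the endoplasmic reticulum by the transporter Tap1/Tap2 and loaded with the help of tapasin. MHC class II molecules are made mainly by dendritic cells, macrophages and B cells, carry peptides taken up from outside and reach the endosome with the invariant chain Cd74. Interferon-gamma raises both pathways through Irf1 and the transactivators Nlrc5 (class I) and Ciita (class II).

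The column sums of FPKM ranged from 424961 to 564343, and the depth of the samples is unknown because no counts are given. The PBOO week 5 samples stood apart in the levels of cell type markers: the 6 smooth muscle markers summed to 1234 and 708 FPKM against 17749.5, 16907 and 18598 FPKM in normal tissue, whereas the leukocyte gene Ptprc was at 4.32 and 18.6 against 2.01, 2.82 and 1.43 FPKM. At week 4 the same muscle markers summed to 34983, 44298 and 61649 FPKM in PBOO and 16503, 14343 and 14006 FPKM in normal tissues. Normal replicate 1 of that week was low in leukocyte and stromal genes, with Ptprc at 1.39, 6.56 and 7.49 FPKM in normal replicates 1 to 3. In whole tissue, fewer cells of a type and less RNA per cell cannot be told apart. A gene listed at 0 is reported only as such, since 4871 genes, among them Nlrc5, were at 0 in every week 4 sample. Many RT1 genes are near copies of each other, so reads of one may have been counted for another, and the value of a single RT1 class I gene is uncertain for this reason.

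At week 4 no gene of the set passed the test in either direction, while at week 5 upregulated genes were found among the class I chains, B2m, the peptide transporter, the immunoproteasome, the class II chains and both transactivators. The test was limma on log2(FPKM + 0.1), applied where a gene averaged 0.5 FPKM or more across the samples of the week, a level that 43 of the 55 genes reached at week 4 and 45 at week 5. Of these, Cd80 at week 4 and RT1-M2 and Cd40 at week 5 passed only through the PBOO samples. At week 5, 21 of the 45 genes were upregulated at least 2-fold with a Benjamini-Hochberg adjusted p under 0.05, against 7.91% of all genes tested, and 0 were downregulated, against 11.4%. With the unadjusted p in place of the adjusted one, 29 were higher (9.82% of all genes) and 0 lower (12.6%). In 34 of the 45 genes both PBOO samples lay above all 3 normal samples (35.3% of all genes), and in 0 below (25.0%). The 29 and the 34 include Cd40, which was tested only through its PBOO samples and could only come out higher. The 21 do not include it. The median log2 fold change of the set was 1.42, beside 0.12 for all genes.

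At week 4 the counts of the set were set beside those of all genes in the same way. The adjusted 2-fold rule called 0 of 43 genes higher (0.265% of all genes) and 0 lower (0.106%), and the unadjusted rule called 0 higher (2.46%) and 1 lower (2.45%), the costimulatory gene Cd86. Without a fold threshold, an unadjusted p under 0.05 was reached by 14 genes on the lower side (26.2% of all genes) and by 0 on the higher side (5.76%). In 15 genes all PBOO samples lay below all normal samples (34.9% of all genes), and in 0 above (6.63%). The non-overlapping share of the set equalled that of all genes. The 14 lower genes became 24 of 44 (20.6% of all genes) without normal replicate 1, the sample low in leukocyte genes, with B2m, Cd74, RT1-Da and Ctss among them, and 8 of 43 (16.8%) without normal replicate 2. The median log2 fold change of the set was -0.51, beside -0.25 for all genes, and median-ratio scaling of the samples brought these to -0.26 and -0.01. Under that scaling 8 of the 43 genes, against 9.01% of all genes, were lower at an unadjusted p under 0.05.

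**Figure D1:**
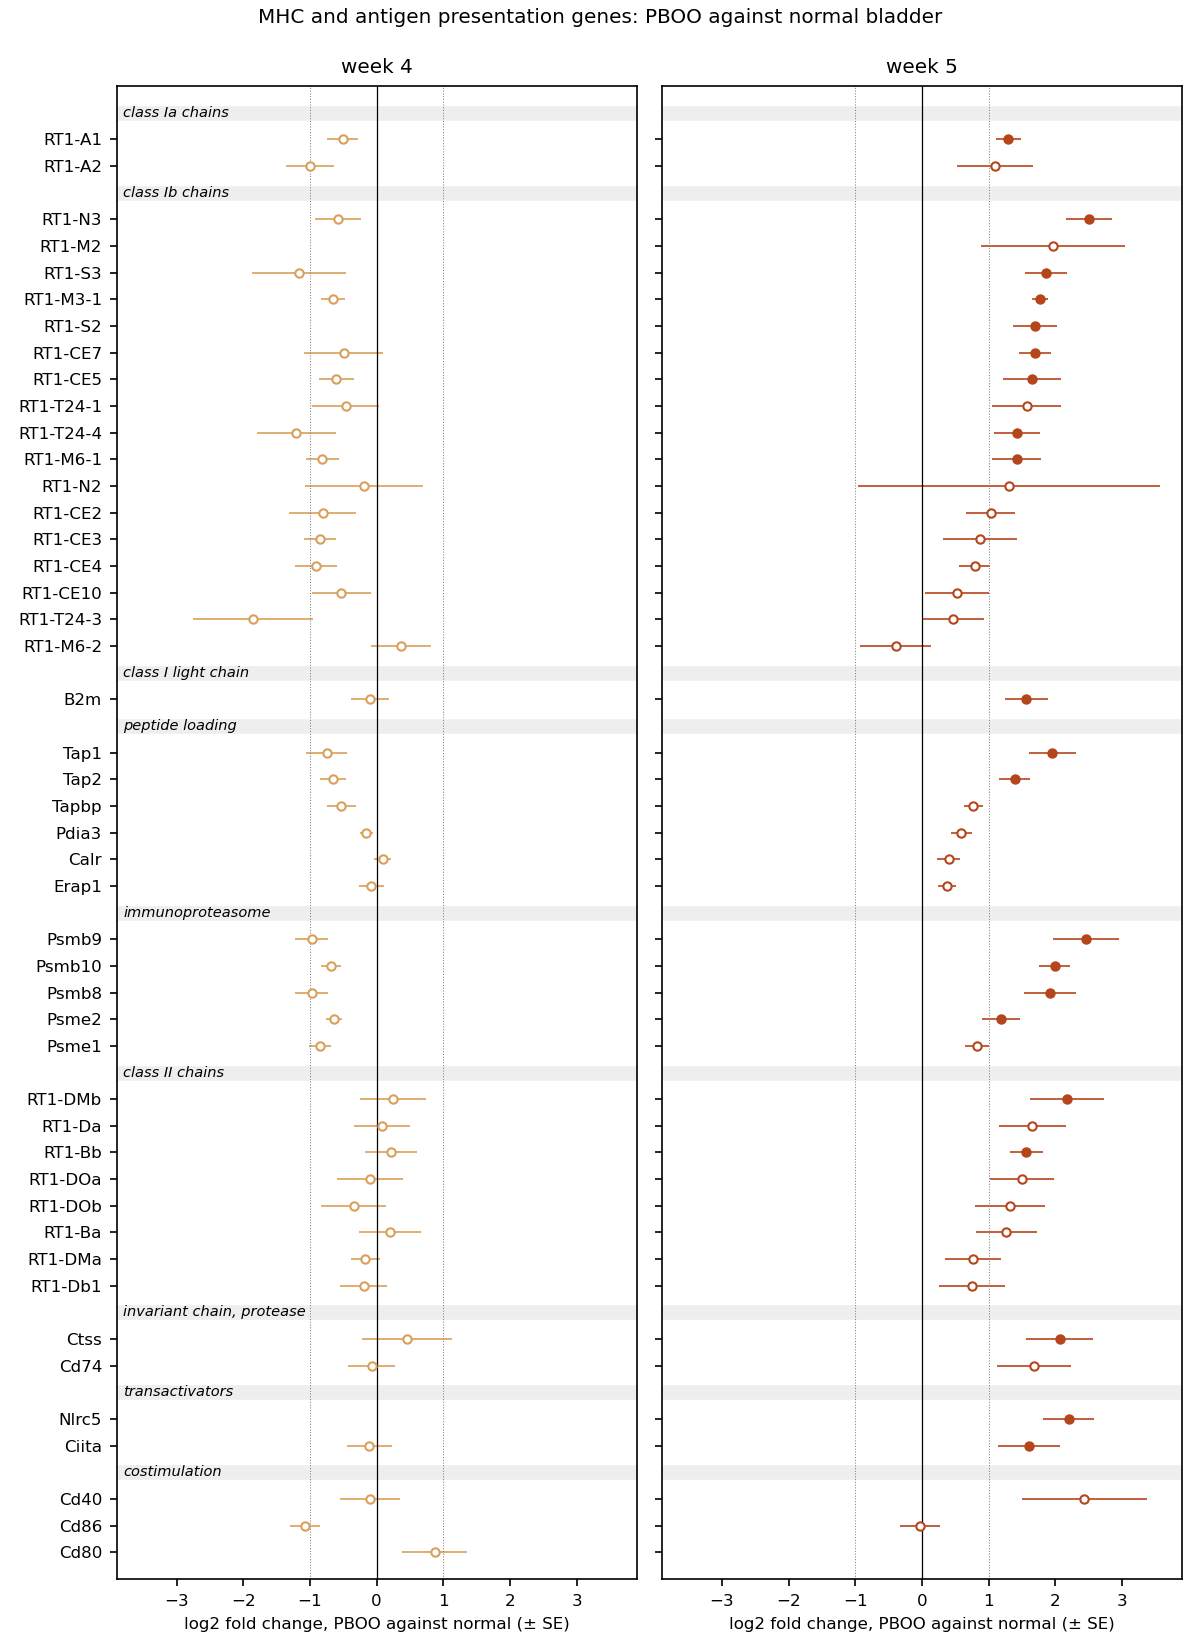
Log2 fold change of PBOO against normal bladder tissues with its standard error for each tested gene at week 4 (left) and week 5 (right), grouped by role; filled points passed the adjusted p and 2-fold rule, dotted lines mark 2-fold. At week 5, 21 points are filled and 43 of 45 lie above 0, while at week 4 none is filled and 35 of 43 lie below 0.

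The classical class I heavy chains RT1-A1 and RT1-A2 present peptide to cytotoxic T cells. RT1-A1 was measured at 30.6, 52.7 and 31.5 FPKM in normal and 29.7, 21.6 and 27.3 FPKM in PBOO tissues at week 4, and at 32.6, 32.8 and 37.9 against 70.3 and 101 FPKM at week 5. Both week 5 PBOO samples lay above the normal range, and RT1-A1 was upregulated (log2 fold change 1.29 ± 0.19 SE, limma adjusted p = 0.00585). RT1-A2 was at 69.4, 103 and 104 FPKM in normal and 27.8, 43.1 and 77.1 FPKM in PBOO tissues at week 4, and at 64.2, 72.0 and 64.8 against 69.7 and 293 FPKM at week 5. Only PBOO replicate 2 stood out at week 5, replicate 1 lying inside the normal range, and the week 5 difference of 1.09 ± 0.57 did not pass (limma adjusted p = 0.2). At week 4 both genes had lower values in PBOO, -0.51 ± 0.24 for RT1-A1 and -0.999 ± 0.36 for RT1-A2, with limma adjusted p-values of 0.183 and 0.12.

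Since the genes of the class I pathway are known to share promoter elements, the upstream sequences of 3 of them are shown, from RefSeq windows of the rat build GRCr8 and read 5′ to 3′ up to the base before the transcription start. Capitals mark the X2 core TGACG and the Y box CCAAT, the binding letters of the MHC enhanceosome, and the interferon element core GAAANNGAA, each on either strand. The windows lie on the plus strand at chr3:129549160-129549329 (B2m), chr20:4907039-4907208 (RT1-A1) and chr20:4872701-4872870 (RT1-A2).
B2m: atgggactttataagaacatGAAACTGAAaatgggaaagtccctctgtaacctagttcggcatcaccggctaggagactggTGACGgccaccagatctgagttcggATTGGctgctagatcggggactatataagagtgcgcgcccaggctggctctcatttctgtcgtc
RT1-A1: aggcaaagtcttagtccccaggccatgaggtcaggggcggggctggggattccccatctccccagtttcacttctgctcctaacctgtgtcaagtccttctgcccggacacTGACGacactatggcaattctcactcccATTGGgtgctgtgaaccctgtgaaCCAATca
RT1-A2: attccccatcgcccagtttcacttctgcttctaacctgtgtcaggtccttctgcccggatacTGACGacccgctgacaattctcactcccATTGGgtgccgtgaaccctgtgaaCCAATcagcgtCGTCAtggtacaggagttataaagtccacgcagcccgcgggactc
All 3 windows hold the X2 core followed by a Y box, and only B2m holds the letters GAAANNGAA. The RT1-A1 and RT1-A2 windows both hold the stretch agtttcacttct. On its opposite strand the GAAA and GAA blocks of that core stand in the other order. The search did not cover this order, so it does not show that the class Ia windows lack an interferon element. In the full RefSeq windows, which run from 250 bases before to 50 after the start, RT1-A1 and RT1-A2 are 94.4% identical over 249 aligned bases, the A2 start being set further downstream. The 3 genes shown are picked examples. In the full windows TGACG stood in 10 of the 45 genes of the set with a window, against 21.2% of all windows. CCAAT stood in 30 of the 45, against 37.5%. A match of letters is a description and not a site in use.

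Among the 24 class Ib chains, which include ligands of natural killer and unconventional T cells, 8 of the 17 tested at week 5 were upregulated (7.91% of all genes) and 0 downregulated (11.4%), and the median log2 fold change was 1.42. RT1-CE5 had the highest level of the group, with 86.1, 127 and 70.6 FPKM in normal and 75.7, 63.5 and 45.9 FPKM in PBOO tissues at week 4 and 66.6, 145 and 70.0 against 199 and 379 FPKM at week 5. Both PBOO samples exceeded the normal ones at week 5, by a log2 fold change of 1.64 ± 0.44 (limma adjusted p = 0.0389). The largest rise of the whole set was that of RT1-N3, which stood at 4.60, 5.91 and 4.48 FPKM in normal and 19.2 and 42.5 FPKM in PBOO tissues at week 5 (5.67-fold, limma adjusted p = 0.00542). Its week 4 values were 6.48, 15.03 and 14.4 and 8.30, 5.84 and 8.60 FPKM, overlapping between the groups.

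RT1-M3-1 had the smallest error of the class Ib rises. It was at 9.27, 8.89 and 9.66 FPKM in normal and 30.3 and 33.2 FPKM in PBOO tissues at week 5 (log2 fold change 1.76 ± 0.12, limma adjusted p = 5.63e-04). The PBOO samples lay close together here. At week 4 it was at 14.0, 19.3 and 22.2 against 11.9, 11.6 and 10.9 FPKM, all PBOO samples being below the normal ones (log2 fold change -0.66 ± 0.18, limma adjusted p = 0.0823).

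The other upregulated class Ib genes differed widely in level. RT1-CE7 went from 22.8, 37.7 and 27.3 FPKM in normal to 81.8 and 105 FPKM in PBOO tissues at week 5, and RT1-S3 from 8.05, 10.3 and 8.96 to 23.1 and 47.4 FPKM. RT1-T24-4 was at 8.04, 14.0 and 8.24 against 19.9 and 34.8 FPKM. The groups did not overlap in any of the 3, with log2 fold changes of 1.69, 1.86 and 1.42 and limma adjusted p-values of 0.00583, 0.01001 and 0.0300. RT1-M6-1 and RT1-S2 were low genes, at 2.27, 3.39 and 2.65 against 5.11 and 10.9 FPKM and at 0.409, 0.650 and 0.584 against 2.20 and 1.77 FPKM, with log2 fold changes of 1.42 and 1.70 (limma adjusted p = 0.0348 and 0.0156).

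At week 4, 3 class Ib genes were high in a single normal sample. RT1-T24-3 was at 16.5, 156 and 13.2 FPKM in normal and 11.2, 11.6 and 5.47 FPKM in PBOO tissues, RT1-S3 at 16.0, 127 and 28.6 against 22.3, 18.9 and 12.2 FPKM and RT1-T24-4 at 15.1, 77.3 and 20.9 against 15.2, 15.4 and 8.44 FPKM. In each, normal replicate 2 lay far above its partners. These were also the largest negative changes of the week (-1.85 ± 0.90, -1.16 ± 0.70 and -1.21 ± 0.59), with limma adjusted p-values of 0.197, 0.273 and 0.2.

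RT1-CE3, RT1-CE4 and RT1-CE10 showed mixed values. RT1-CE3 and RT1-CE4 had no overlap between groups at week 4, with lower PBOO values (log2 fold changes -0.85 ± 0.24 and -0.90 ± 0.32, limma adjusted p = 0.0864 and 0.115). At week 5 RT1-CE4 was at 16.6, 21.1 and 19.6 against 26.1 and 41.6 FPKM (log2 fold change 0.79 ± 0.23, limma adjusted p = 0.0501). RT1-CE3 and RT1-CE10 overlapped between the groups at week 5, at 10.1, 4.67 and 10.7 against 8.69 and 24.8 FPKM and at 16.4, 6.93 and 21.8 against 18.5 and 20.5 FPKM. RT1-T24-3 overlapped as well, at 5.999, 8.06 and 6.21 against 5.37 and 16.1 FPKM.

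RT1-N2 split within a group more than any other gene of the set. It was at 0.149 and 72.8 FPKM in the PBOO samples of week 5, against 1.06, 3.03 and 1.33 FPKM in normal tissues, so that one PBOO sample was below and the other above every normal one. Its log2 fold change of 1.301 ± 2.27 did not pass (limma adjusted p = 0.692), and without PBOO replicate 2 the value turned to -2.80 (limma adjusted p = 0.0354). That fit holds 1 PBOO sample, so its spread comes from the normal samples alone and the lone sample is assumed to vary like them. At week 4 it was at 0.975, 6.05 and 16.5 FPKM in normal and 3.95, 4.56 and 3.83 FPKM in PBOO tissues. RT1-M6-2 was the only RT1 gene tested with a negative value at week 5, at 0.982, 2.23 and 0.769 against 0.646 and 1.22 FPKM (log2 fold change -0.39 ± 0.53, limma adjusted p = 0.609).

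The 9 genes of the set whose mean was under 0.5 FPKM in both weeks were all RT1 genes, and Nlrc5, RT1-Db2, RT1-M10-1 and RT1-M4 had 0 FPKM throughout week 4. The remaining low class Ib genes tested, RT1-T24-1, RT1-CE2 and RT1-M2, had week 5 log2 fold changes of 1.57, 1.03 and 1.97, none past the adjusted threshold.

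**Figure D2:**
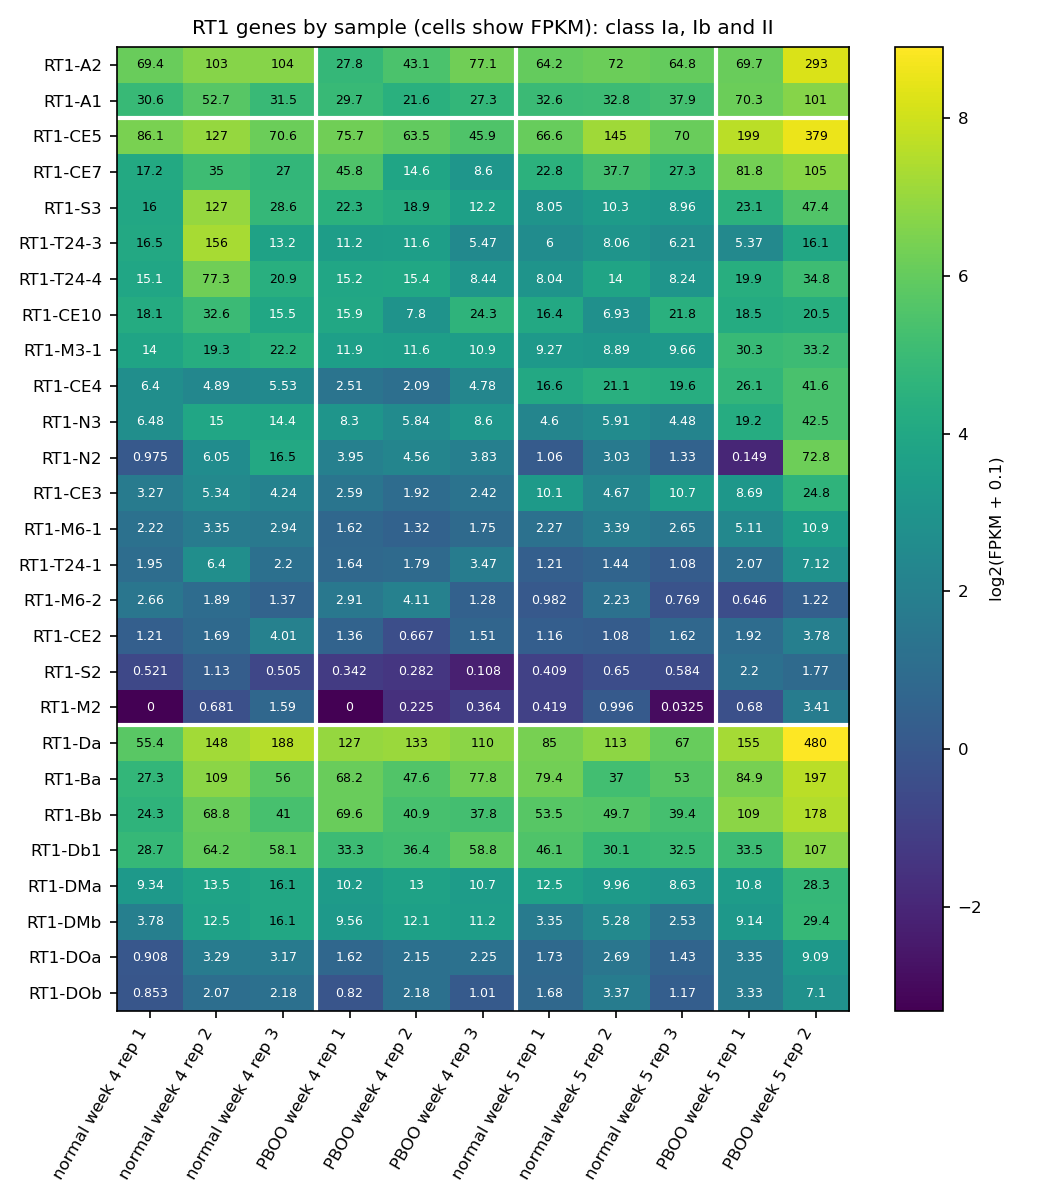
FPKM of the RT1 genes that averaged 0.5 or more across all 11 samples, 1 column per sample and 1 row per gene (class Ia, then class Ib, then class II); the colour shows log2(FPKM + 0.1). PBOO week 5 replicate 2 is the brightest column in most rows, normal week 4 replicate 2 stands out for RT1-T24-3, RT1-S3 and RT1-T24-4, and RT1-N2 runs from 0.149 to 72.8 FPKM between the PBOO week 5 samples.

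B2m, the light chain shared by all class I molecules, was among the highest genes of the set. It was at 586, 1193 and 1149 FPKM in normal and 794, 823 and 1007 FPKM in PBOO tissues at week 4, where the groups overlapped (log2 fold change -0.10 ± 0.28, limma adjusted p = 0.82) and the sign turned positive under median-ratio and quantile scaling. At week 5 it was at 448, 605 and 449 FPKM in normal and 1061 and 2028 FPKM in PBOO tissues, both PBOO samples being above the normal ones (2.96-fold, limma adjusted p = 0.0175). The sum of all 26 class I chains was 273, 381 and 298 FPKM in normal and 585 and 1241 FPKM in PBOO tissues at week 5. The ratio of that sum to B2m overlapped between the groups, at 0.609, 0.630 and 0.664 against 0.551 and 0.612 (exact permutation test, two-sided p = 0.4, the smallest possible being 0.2).

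Tap1 and Tap2, the subunits of the peptide transporter, were upregulated at week 5: Tap1 was at 11.5, 11.3 and 13.2 FPKM in normal and 30.6 and 71.4 FPKM in PBOO tissues, and Tap2 at 5.12, 6.01 and 6.01 against 11.9 and 19.2 FPKM. The changes were 3.88-fold and 2.62-fold, with limma adjusted p-values of 0.0121 and 0.00978. Tapasin (Tapbp), which bridges the transporter and the class I chain, was at 61.4, 55.5 and 68.8 against 112 and 99.0 FPKM and passed the adjusted p (0.0124, limma) at a change below 2-fold (1.71-fold). Its PBOO replicate 1 was above replicate 2.

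The remaining loading genes act in the endoplasmic reticulum. Calreticulin (Calr) was at 348, 409 and 407 against 452 and 576 FPKM, Pdia3, a disulfide isomerase of the loading complex, at 177, 211 and 195 against 259.7 and 328 FPKM, and Erap1, the aminopeptidase that trims peptides, at 6.55, 7.15 and 6.39 against 8.70 and 8.78 FPKM. In all 3 the groups did not overlap, with log2 fold changes of 0.40 ± 0.17, 0.59 ± 0.16 and 0.38 ± 0.13 (limma adjusted p = 0.133, 0.0420 and 0.0827). Pdia3 passed the adjusted p at a change below 2-fold, but its adjusted p was above the threshold in 9 of 14 alternative fits, up to 0.165.

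At week 4 the transporter and tapasin had negative values. Tap1 was at 11.2, 24.2 and 12.4 FPKM in normal and 11.1, 8.09 and 7.82 FPKM in PBOO tissues, Tap2 at 7.17, 8.82 and 7.41 against 5.58, 5.36 and 3.92 FPKM and Tapbp at 42.0, 39.3 and 29.5 against 32.4, 25.3 and 19.5 FPKM. The log2 fold changes were -0.75 ± 0.31, -0.66 ± 0.19 and -0.53 ± 0.22, with unadjusted p-values of 0.0457, 0.0109 and 0.0441 and adjusted ones of 0.15, 0.0870 and 0.147 (limma). Calr, Pdia3 and Erap1 lay within -0.15 to 0.09 (log2) and overlapped between the groups except Pdia3.

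Of the 5 immunoproteasome genes 4 were upregulated at week 5 (7.91% of all genes) and 0 at week 4. Psmb8, Psmb9 and Psmb10 replace the catalytic subunits of the constitutive proteasome under interferon, and Psme1 and Psme2 form its cap PA28. At week 5 Psmb9 was at 13.3, 14.3 and 16.5 FPKM in normal and 44.1 and 149 FPKM in PBOO tissues, Psmb8 at 19.7, 20.8 and 20.7 against 47.6 and 126 FPKM and Psmb10 at 18.9, 20.02 and 28.4 against 75.2 and 103 FPKM. No PBOO sample was inside the normal range, and the changes were 5.52-fold, 3.78-fold and 3.97-fold (limma adjusted p = 0.0168, 0.0180 and 0.00313). Psme2 was at 43.4, 41.4 and 40.7 against 67.3 and 135 FPKM (2.28-fold, limma adjusted p = 0.0308). Psme1 was at 103, 96.7 and 94.4 against 145 and 209 FPKM and passed the adjusted p (0.0215, limma) at 1.78-fold.

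At week 4 all 5 immunoproteasome genes had lower values in every PBOO sample than in any normal sample, as had 34.9% of all genes tested. Psme1 was at 203, 247 and 228 FPKM in normal and 146, 132 and 101 FPKM in PBOO tissues, and Psme2 at 72.7, 92.3 and 88.4 against 52.6, 57.7 and 51.2 FPKM. Psmb8 was at 22.7, 37.1 and 39.6 against 13.9, 15.8 and 19.8 FPKM, Psmb9 at 28.1, 46.0 and 39.2 against 25.4, 17.5 and 14.9 FPKM and Psmb10 at 31.2, 39.8 and 38.1 against 26.0, 22.0 and 19.6 FPKM. Their log2 fold changes were -0.85 ± 0.16 (Psme1), -0.64 ± 0.12 (Psme2), -0.98 ± 0.24 (Psmb8), -0.98 ± 0.25 (Psmb9) and -0.69 ± 0.15 (Psmb10). The limma adjusted p-values lay between 0.0538 (Psme1) and 0.0757 (Psmb9). The unadjusted p was under 0.05 for all 5 in each of the 6 fits that left out a sample and under both other scalings, and all 5 values were below 0 under each scaling.

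The promoters of 4 genes of this group and of the loading genes are shown as examples that hold the interferon element core. They are the 120 bases before the start from RefSeq (GRCr8), on the minus strand and read 5′ to 3′, at chr19:50743293-50743412 (Psmb10), chr15:33052752-33052871 (Psme2), chr20:4652297-4652416 (Tap2) and chr20:4967878-4967997 (Tapbp), with capitals for GAAANNGAA.
Psmb10: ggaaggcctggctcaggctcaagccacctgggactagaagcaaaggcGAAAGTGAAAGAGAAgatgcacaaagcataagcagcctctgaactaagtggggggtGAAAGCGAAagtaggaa
Psme2: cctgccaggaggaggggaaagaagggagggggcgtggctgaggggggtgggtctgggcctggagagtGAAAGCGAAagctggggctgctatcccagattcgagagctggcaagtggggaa
Tap2: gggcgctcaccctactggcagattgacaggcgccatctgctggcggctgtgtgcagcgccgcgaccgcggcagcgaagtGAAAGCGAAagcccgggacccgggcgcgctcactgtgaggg
Tapbp: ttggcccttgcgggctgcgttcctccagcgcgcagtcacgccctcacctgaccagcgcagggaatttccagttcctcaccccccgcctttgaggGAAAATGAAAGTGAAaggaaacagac
In windows from 250 bases before to 50 after the start, GAAANNGAA stood in 3 of the 5 immunoproteasome genes (Psmb8, Psmb10 and Psme2), in 3 of the 4 loading genes with a window (Tap1, Tap2 and Tapbp) and in 12 of the 45 genes of the set with a window. It stood in 9.71% of all 33469 windows. In the order of RefSeq genes, Tap2, Psmb8, Tap1 and Psmb9 are direct neighbours.

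The constitutive subunits gave a comparison within each sample. At week 5 Psmb8 over its counterpart Psmb5 was 0.234, 0.269 and 0.254 in normal and 0.670 and 1.29 in PBOO tissues, Psmb9 over Psmb6 was 0.149, 0.175 and 0.174 against 0.583 and 1.44, and Psmb10 over Psmb7 was 0.279, 0.282 and 0.431 against 1.36 and 1.15. No PBOO sample fell in the normal range of any of the 3 ratios, and the exact permutation test gave a two-sided p of 0.2 for each, the smallest that 2 against 3 samples allow. The log2 differences were 1.88, 2.47 and 1.95. At week 4 Psmb8 over Psmb5 was 0.233, 0.364 and 0.360 in normal and 0.149, 0.162 and 0.185 in PBOO tissues, without overlap (exact permutation test, two-sided p = 0.1, the smallest possible). The other 4 ratios overlapped at week 4. Psmb10 over Psmb7 was 0.300, 0.347 and 0.294 against 0.295, 0.192 and 0.161 and Psmb9 over Psmb6 was 2.26, 4.32 and 2.90 against 3.72, 2.29 and 1.86 (exact permutation test, two-sided p = 0.2 and 0.6). The exact p was 0.3 for Psme1 over Psme3 and 0.4 for Psme2 over Psme3. The level of Psmb6 differed between the weeks in normal tissues as well (12.4, 10.6 and 13.5 FPKM at week 4, 89.2, 81.7 and 94.6 FPKM at week 5), so its ratio is not set across weeks. Within week 4 Psmb6 was itself lower in every PBOO sample, at 6.83, 7.65 and 7.98 FPKM (log2 fold change -0.69 ± 0.15). Psme3 was also lower in every PBOO sample of that week (-0.37 ± 0.15). The overlap of the ratios to Psmb6 and Psme3 at week 4 therefore does not describe the numerators alone.

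**Figure D3:**
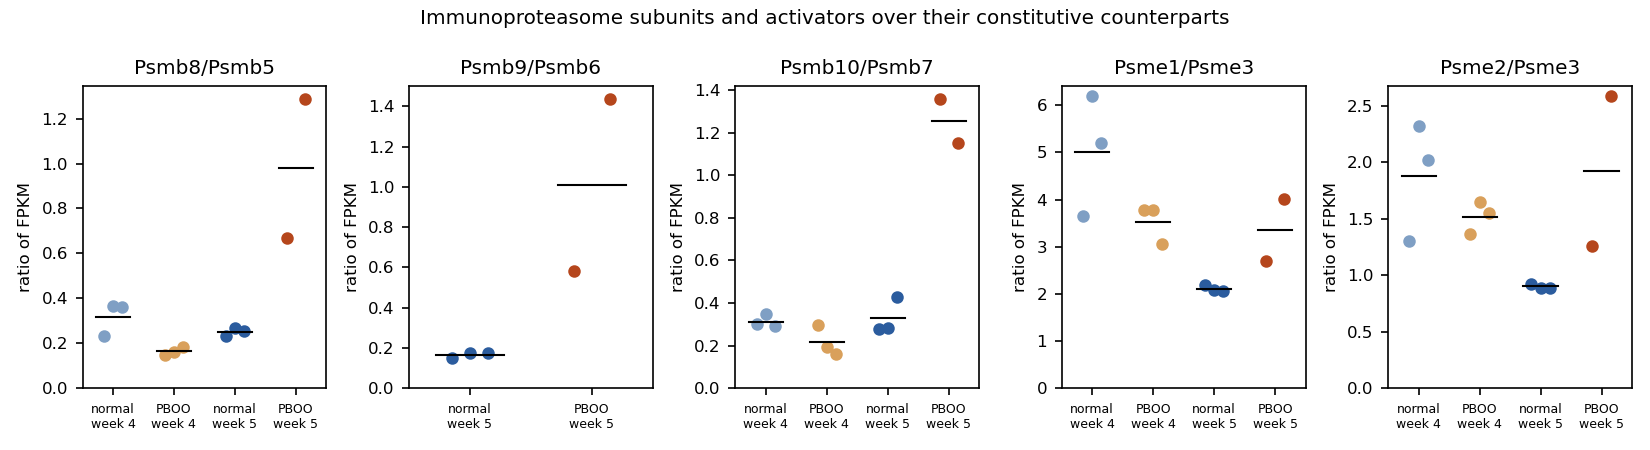
Ratio of FPKM of each immunoproteasome subunit to its constitutive counterpart, and of the cap genes Psme1 and Psme2 to Psme3. Points are samples and lines are group means. The PBOO week 5 samples lie above the normal week 5 samples in all 5 panels, from 0.670 and 1.29 against 0.234 to 0.269 for Psmb8/Psmb5; Psmb9/Psmb6 is drawn for week 5 alone.

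Of the 8 class II chains tested at week 4, 4 had log2 fold changes above 0 and 4 below, with a median of -0.01. With median-ratio scaling 7 of the 8 lay above 0. At week 5 all 8 were above 0, with a median log2 fold change of 1.41, and 2 passed the adjusted rule (7.91% of all genes). RT1-Bb, a beta chain, was at 53.5, 49.7 and 39.4 FPKM in normal and 109 and 178 FPKM in PBOO tissues (2.95-fold, limma adjusted p = 0.00819). RT1-DMb, a chain of the molecule that exchanges peptides on class II, was at 3.35, 5.28 and 2.53 against 9.14 and 29.4 FPKM (4.52-fold, limma adjusted p = 0.0341). In both, all PBOO samples were above the normal ones.

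RT1-Da, the alpha chain with the highest level, was at 55.4, 148 and 188 FPKM in normal and 127, 133 and 109.6 FPKM in PBOO tissues at week 4, and at 85.0, 113 and 67.0 against 155 and 479.9 FPKM at week 5. The week 5 groups did not overlap, but the log2 fold change of 1.66 ± 0.50 did not pass (limma adjusted p = 0.0560). RT1-Ba, the alpha partner of RT1-Bb, was at 79.4, 37.0 and 53.0 against 84.9 and 197 FPKM (log2 fold change 1.26 ± 0.46, limma adjusted p = 0.0888). Its upstream sequence is shown since the X2 core in it is a palindrome, so that TGACG is read on both strands, with the Y box CCAAT on the opposite strand after it (RefSeq, GRCr8, plus strand, chr20:4576937-4577056, the 120 bases before the start).
RT1-Ba: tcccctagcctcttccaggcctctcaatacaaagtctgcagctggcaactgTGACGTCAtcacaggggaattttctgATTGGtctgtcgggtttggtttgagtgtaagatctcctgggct
CCAAT on either strand stood in the windows of all 9 class II chains that had one, against 37.5% of all windows, and TGACG in 1 of the 9, against 21.2%.

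RT1-Db1 is a beta chain and RT1-DMa the partner of RT1-DMb. RT1-Db1 was at 46.1, 30.1 and 32.5 FPKM in normal and 33.5 and 107 FPKM in PBOO tissues, and RT1-DMa at 12.5, 9.96 and 8.63 against 10.8 and 28.3 FPKM. In both, replicate 1 was inside the normal range and replicate 2 above it (limma adjusted p = 0.299 and 0.22). RT1-DOa and RT1-DOb, the chains of the molecule that restrains peptide exchange, had log2 fold changes of 1.504 ± 0.48 and 1.32 ± 0.52 (limma adjusted p = 0.0660 and 0.11). At week 4 RT1-Bb was at 24.3, 68.8 and 41.0 against 69.6, 40.9 and 37.8 FPKM, RT1-Ba at 27.3, 109 and 56.0 against 68.2, 47.6 and 77.8 FPKM and RT1-DMb at 3.78, 12.5 and 16.1 against 9.56, 12.1 and 11.2 FPKM. The groups overlapped in each of them, and normal replicate 1 was the lowest normal sample.

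Cd74, the invariant chain that escorts class II molecules, had the highest value of a PBOO sample after B2m. It was at 192, 405 and 488 FPKM in normal and 355, 362 and 252 FPKM in PBOO tissues at week 4, and at 217, 286 and 158 against 365 and 1292 FPKM at week 5. Both week 5 PBOO samples were above the normal ones, with a log2 fold change of 1.68 ± 0.56 that did not pass after adjustment (limma adjusted p = 0.0724). Ctss, the protease cathepsin S that removes the invariant chain, was at 11.1, 13.8 and 6.79 against 25.3 and 72.2 FPKM at week 5 and passed (4.18-fold, limma adjusted p = 0.0313). At week 4 it was at 10.39, 63.9 and 64.3 against 43.5, 42.8 and 59.1 FPKM (log2 fold change 0.45 ± 0.67, limma adjusted p = 0.642), and without normal replicate 1, its lowest sample, the value was -0.42 (limma adjusted p = 0.188). The sum of the 10 class II chains over Cd74 overlapped between the groups at week 5, at 1.31, 0.881 and 1.299 against 1.12 and 0.802 (exact permutation test, two-sided p = 0.4).

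Both transactivators were upregulated at week 5. Nlrc5, which drives class I genes, was at 2.42, 2.13 and 2.18 FPKM in normal and 6.79 and 16.8 FPKM in PBOO tissues (4.61-fold, limma adjusted p = 0.0108), and it is listed at 0 in all week 4 samples. Ciita, which drives class II genes, was at 1.53, 2.42 and 1.14 against 3.38 and 7.76 FPKM (3.04-fold, limma adjusted p = 0.0488), and its adjusted p was above the threshold in 8 of 14 alternative fits, up to 0.160. At week 4 Ciita was at 0.934, 1.71 and 1.91 against 1.48, 1.52 and 1.07 FPKM, overlapping between the groups, and its sign too depended on the scaling.

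None of the costimulatory genes tested passed the adjusted test in either week. Cd80 was not tested at week 5, its mean being under 0.5 FPKM. Cd86, a ligand of Cd28 on T cells, was at 15.9, 10.1 and 12.2 FPKM in normal and 7.03, 4.83 and 6.05 FPKM in PBOO tissues at week 4, all PBOO samples being lower (2.10-fold lower, limma unadjusted p = 0.00179, adjusted p = 0.0559). At week 5 it was at 12.7, 10.2 and 9.05 against 14.2 and 7.47 FPKM, with 1 PBOO sample above and 1 below the normal range. Cd80, the other Cd28 ligand, was low, at 0.181, 0.494 and 0.488 against 0.467, 0.917 and 0.941 FPKM at week 4 (log2 fold change 0.87 ± 0.48, limma adjusted p = 0.241) and at 0.234, 0.267 and 0.206 against 0.475 and 0.922 FPKM at week 5. Cd40, the receptor through which T cells license antigen-presenting cells, was at 0.526, 0.415 and 0.0763 against 0.757 and 4.93 FPKM at week 5 (log2 fold change 2.43 ± 0.94, limma adjusted p = 0.103).

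**Figure D4:**
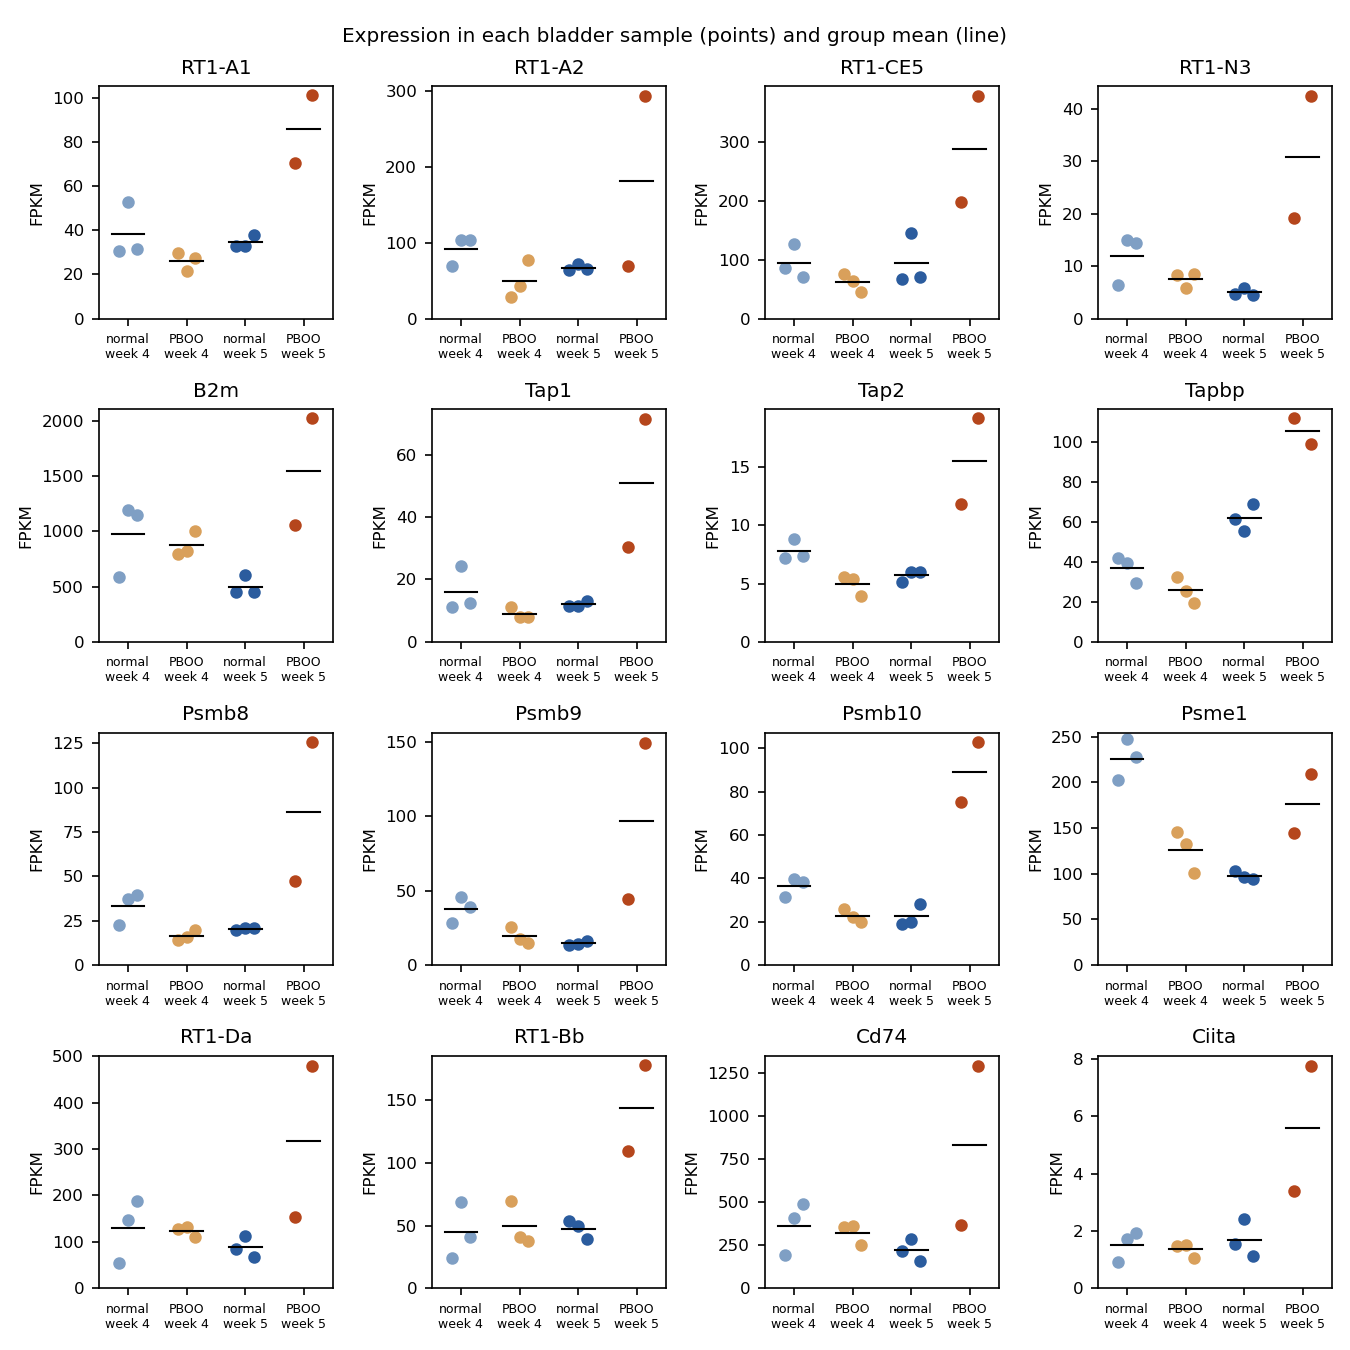
FPKM of 16 genes of the set in each sample (points) with the group mean (line), for normal and PBOO tissues at weeks 4 and 5. At week 5 the PBOO points lie above the normal points in 15 of the 16 panels, RT1-A2 being the exception with 1 PBOO sample at 69.7 FPKM between normal samples, and PBOO replicate 2 lies above replicate 1 except for Tapbp.

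The PBOO samples of week 5 differed from each other. In 42 of the 45 tested genes replicate 2 was above replicate 1, with a median ratio of 2.13 and a range from 0.527 to 488. No such count over all genes is given here, so this is not shown to be particular to the set. The column sums of FPKM were 434582 in replicate 1 and 469671 in replicate 2. With 1 PBOO sample left out, the spread of the fit comes from the normal samples alone, and the remaining PBOO sample is assumed to vary like them. On that basis, without replicate 2, 14 genes of the set were upregulated (adjusted p and 2-fold, 6.77% of all genes) and the median log2 fold change was 0.85. Without replicate 1, 35 were upregulated (12.3% of all genes) and the median was 1.88. Leaving out a normal sample of week 5 left 9 to 14 genes, beside 646 to 840 of all genes tested. The 9 genes called in every one of the 5 leave-out fits were Nlrc5, RT1-Bb, Tap2, RT1-A1, RT1-CE7, RT1-M3-1, RT1-N3, RT1-S3 and Psmb10.

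Of 45 further genes of the pathway, 7 of 42 tested at week 5 were upregulated (7.91% of all genes) and 2 downregulated (11.4%) by the adjusted 2-fold rule, and at week 4 none of 40 passed. Among the transcription factors, Irf8 (4.66-fold, limma adjusted p = 0.0162) and Irf1 (3.55-fold, 0.00529) were upregulated. Irf1 was at 20.2, 22.2 and 21.4 FPKM in normal and 56.3 and 101 FPKM in PBOO tissues. Creb1 was downregulated (log2 fold change -1.49 ± 0.33, limma adjusted p = 0.0235), and Rfx5, a subunit of the factor that binds the X box, was at 9.68, 3.25 and 3.30 against 10.3 and 15.6 FPKM (limma adjusted p = 0.0946).

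Interferon-gamma itself (Ifng) was listed at 0 in all normal week 5 samples and at 0 and 2.13 FPKM in the PBOO samples, so only replicate 2 gave a value. Its inhibitor Socs1 was upregulated (2.84-fold, limma adjusted p = 0.04997), and Cd274, the ligand of the inhibitory receptor PD-1, had the largest fold change of these lists, from 0.592, 0.528 and 0.552 FPKM to 2.06 and 6.70 FPKM (5.83-fold, limma adjusted p = 0.0171). In the endosome list Ifi30 (2.57-fold, limma adjusted p = 0.0343) and the protease Ctsl (2.11-fold, 0.00600) were upregulated and the protease Ctsh was downregulated (log2 fold change -1.35 ± 0.33, 0.0305). Of the 6 constitutive proteasome genes and the 8 genes of folding and transport in the endoplasmic reticulum, 0 passed, with median log2 fold changes of 0.04 and 0.36.

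The summed markers of each immune cell type were higher in both PBOO samples at week 5, though single markers differed. The 10 markers of T and natural killer cells summed to 12.7, 18.6 and 11.9 FPKM in normal and 19.5 and 62.4 FPKM in PBOO tissues, the 8 of dendritic cells to 7.84, 11.6 and 6.12 against 17.3 and 41.0 FPKM, and the 4 of neutrophils to 3.84, 2.08 and 0.605 against 14.3 and 441 FPKM. By the adjusted 2-fold rule 3 of 7 tested T and natural killer cell markers, 2 of 8 dendritic cell markers, 2 of 8 macrophage and monocyte markers, 3 of 4 neutrophil markers and the 1 B cell marker tested (of 5) were upregulated, and none of these was downregulated. Among the upregulated markers, Cd3d, Ccr7, Csf3r, Cxcr2 and the B cell marker Blk averaged under 0.5 FPKM in normal tissues. They passed the filter only through the PBOO samples, so they could only be called higher. Of the other B cell markers, which are low, Ms4a1 was listed at 0 in all normal week 5 samples. Fibroblast markers were downregulated in 3 of 4, endothelial ones in 0 of 4, and urothelial ones were upregulated in 1 and downregulated in 2 of 6. At week 4 the same rule called 1 smooth muscle marker higher and none in the other lists. Replicate 2 was the higher PBOO sample in all of these sums but that of macrophages and monocytes (159 and 153 FPKM, against 24.0, 41.0 and 15.9 FPKM in normal tissues). Within it Cd68 was at 73.4 and 63.1 FPKM and Cd14 at 71.3 and 45.1 FPKM. Of these 8 markers 6 had log2 fold changes above 0 and 2 below, Mrc1 (-0.53) and Cd163 (-0.39). Both PBOO samples lay above all normal ones in 4 of these 8 and in 4 of the 7 T and natural killer cell markers. Adgre1, Csf1r, Cd4 and Cd8a were among the rest. In replicate 2 S100a8 and S100a9 were at 145 and 287 FPKM, most of the neutrophil sum.

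Ratios to Ptprc, the pan-leukocyte gene, were computed within each sample. At week 5 B2m over Ptprc was 222, 214 and 313 in normal and 246 and 109 in PBOO tissues, and the class II sum over Ptprc was 141, 89.1 and 143 against 94.8 and 55.7. Both overlapped between the groups (exact permutation test, two-sided p = 0.6 and 0.4), as did the class I sum and Psmb8 over Ptprc (p = 0.6 and 0.8). At week 4 the class I sum over Ptprc was 222, 118 and 51.6 in normal and 44.1, 49.0 and 45.9 in PBOO tissues, and Psmb8 over Ptprc was 16.3, 5.65 and 5.29 against 2.18, 3.35 and 3.66. All PBOO values of these were lower (log2 differences -1.26 and -1.40, exact permutation test, two-sided p = 0.1, the smallest possible), while B2m, Cd74 and the class II sum over Ptprc overlapped. At week 5 Cd74 over Ptprc was 108, 101 and 110.3 in normal and 84.4 and 69.5 in PBOO tissues, both PBOO values being lower (exact permutation test, two-sided p = 0.2, the smallest possible). The part of the leukocyte and muscle markers in the differences of the set was not tested.

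**Figure D5:**
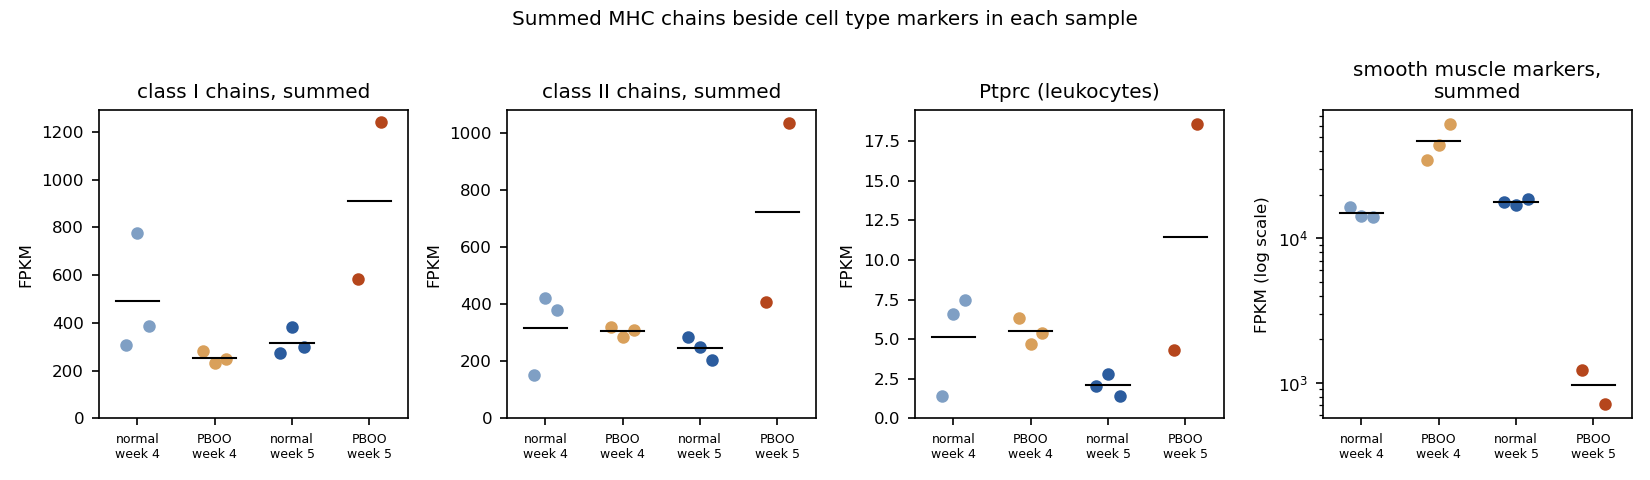
Summed FPKM of the 26 class I chains and of the 10 class II chains, FPKM of Ptprc, and summed FPKM of 6 smooth muscle markers (log axis) in each sample (points) with the group mean (line). PBOO week 5 replicate 2 is the highest sample for both chain sums (1241 and 1036 FPKM) and for Ptprc (18.6 FPKM), and both PBOO week 5 samples are the lowest for the muscle markers.

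The effect of PBOO differed between the weeks for part of the set. In a limma fit over all 11 samples, the week 5 effect exceeded the week 4 effect at an adjusted p under 0.05 in 23 of 45 genes (26.5% of all genes tested), and was below it in 0 (13.5%). With median-ratio scaling 18 genes exceeded it (16.0% of all genes). The median difference of effects (log2) was 1.76 in the set and 0.35 over all genes. The largest belonged to Psmb9 (3.44 ± 0.58, limma adjusted p = 0.00150), RT1-N3 (3.08 ± 0.54, 0.00191) and RT1-S3 (3.02 ± 0.92, 0.0259), and the smallest adjusted p-values to RT1-M3-1 (5.31e-05) and Psmb10 (9.71e-05). All 5 immunoproteasome genes, Tap1, Tap2, Tapbp, Pdia3, B2m, both class Ia chains and Ciita were among the 23. None of the class II chains was, RT1-Bb being the nearest (1.35 ± 0.54, limma adjusted p = 0.0714), nor was Cd74 (1.76 ± 0.70, limma adjusted p = 0.0679). This depended on single samples. Without normal week 4 replicate 1 the test was passed by 33 genes, beside 2663 of all 11293 genes tested. RT1-Da, RT1-Bb, RT1-DMb, RT1-DOa, Cd74 and Ctss were among the 33. RT1-Bb also passed without PBOO week 4 replicate 1, and RT1-DOa and RT1-DOb with quantile scaling. Since the weeks may have been processed apart, levels are not compared between them. For the same reason, a difference of the PBOO effect between the weeks cannot be told apart from a difference in processing.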

How the data were processed

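The authors sequenced libraries of 11 bladder samples (TruSeq kit, Illumina HiSeq), trimmed the reads, mapped them with HISAT2 and assembled transcripts with StringTie. They deposited FPKM values, 1 column per sample and 18507 genes, normalized for gene length and for the fragments mapped. The submitters' processing notes also name bcl2fastq 2.0, DESeq2 and limma, and the genome build mm10, a mouse build, for these rat samples. The annotation and the strand setting of the counting are not given in the sources used here. The week 4 columns are headed as Input samples and the normal week 5 columns as adult samples.

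Because FPKM are not counts and whole reads could not be recovered, limma 3.58.1 (R 4.3.3) was run on log2(FPKM + 0.1) over all genes averaging 0.5 FPKM or more across the samples fitted (between weeks, also above 0 in each week), with a trended variance, within each week and, for the difference between weeks, over all 11 samples. A call needed a Benjamini-Hochberg adjusted p under 0.05 and a 2-fold change. Fold changes on this scale understate those of low genes. The members, roles, pathway and marker lists and tests were chosen with earlier results of these data known. Named were every gene without the RT1 prefix, RT1 genes of at least 5 FPKM in a week or called, and up to 4 genes per direction of the further pathway lists with Irf1, Ifng and Rfx5; other RT1 genes were named after their values were seen. The ratios and the counts without a fold threshold were added after the values were seen. Some genes of the pathway and marker lists enter the counts and sums but are not reported here by name. In the endosome list 8 of 10 genes were found by symbol.

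The fits were tested on simulated data with known changes. Alternatives comprised the pseudocount, the filter, the fold threshold, median-ratio and quantile scaling, a fit over all samples, an untrended variance, a replicate block and the omission of each sample. RefSeq promoter windows (GRCr8) matched 45 of the 55 genes. Python 3.11.15, pandas 2.3.3, numpy 2.4.6, scipy 1.17.1, biopython 1.88 and matplotlib 3.10.9 were used.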

Additional observations from a re-analysis of the deposited data

Results flagged for a closer look

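The effect of PBOO differed between week 5 and week 4 in 23 genes, in each case with the higher value at week 5, as in 26.5% of all genes tested. The test was that of the difference itself (limma over all 11 samples, adjusted p under 0.05). The weeks may have been processed apart, and the design cannot tell a difference of effects from one in processing. The differences (log2, week 5 minus week 4) of the immunoproteasome were 3.44 for Psmb9, 2.89 for Psmb8, 2.68 for Psmb10, 1.83 for Psme2 and 1.68 for Psme1. Among peptide loading genes they were 2.70 for Tap1, 2.05 for Tap2, 1.301 for Tapbp and 0.74 for Pdia3, and B2m was at 1.66 and Ciita at 1.71. The class Ia chains RT1-A2 and RT1-A1 were at 2.09 and 1.80. The class Ib chains were RT1-N3 at 3.08, RT1-S3 at 3.02, RT1-S2 at 2.94, RT1-T24-4 at 2.63, RT1-M3-1 at 2.42, RT1-CE5 at 2.25, RT1-M6-1 at 2.23, RT1-CE7 at 2.19, RT1-CE3 at 1.72 and RT1-CE4 at 1.70. Of the 23 genes, 16 passed in every one of the 11 fits that left out a sample and 13 under every alternative. The calls kept in the fewest of the 19 alternatives were those of RT1-CE3 (5), RT1-CE7 (7), RT1-A2 (8) and Ciita (10), and RT1-T24-4, RT1-S3, RT1-CE4, B2m and Pdia3 lost theirs in at least 1.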

How the results depend on the processing

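Of the 21 genes higher at week 5 by the adjusted rule, 8 were called under every 2-fold alternative, and a 4-fold threshold left 5 (6 with the unadjusted p). The matching counts over all genes are not given here. At week 5, leaving out 1 sample gave 9 to 35 higher genes (17 to 37 with the unadjusted p) and 0 to 1 lower genes by either p; the median log2 fold change of the set ranged from 0.85 without PBOO replicate 2 to 1.88 without PBOO replicate 1. With a normal sample left out, 646 to 840 of all genes tested were higher by the adjusted rule and 1182 to 1345 by the unadjusted 2-fold rule. RT1-N2 was the only gene of the set to reverse, at -2.80 without PBOO week 5 replicate 2 and 5.40 without replicate 1. By the adjusted rule 0 genes were lower at week 4, 1 in the fit over all 11 samples and 0 to 2 when 1 sample was left out. The 1 stood beside 101 of all 11320 genes tested, and the 2, without PBOO replicate 1, beside 424 of 11316. By the unadjusted 2-fold rule 1 gene was lower at week 4, with 3 in the fit over all samples, 2 without a filter or at a pseudocount of 0.01, 0 at a pseudocount of 1, under median-ratio or quantile scaling or at 4-fold, 14 with no fold threshold, and 0 to 9 when 1 sample was left out (9 without normal replicate 1, and 4 without PBOO replicate 1 or 3). Of all genes tested, 2.45% were lower at week 4 by this rule, and 2.56% in the fit over all samples. The share was 2.73% without a filter, 2.53% at a pseudocount of 0.01 and 26.2% with no fold threshold. Beside the 9 stood 343 of all 11320 genes tested, and beside the 4 stood 637 of 11316 and 180 of 11295. The median of all genes at week 4 was -0.00624 with median-ratio and -0.0508 with quantile scaling, and at week 5 0.0213 and 0.0771. The cause was not tested. With a replicate block 3 genes were lower at week 4 by the unadjusted rule, beside 292 of all 11320 genes tested. Same-numbered PBOO and normal samples correlated at 0.15, -0.02 and 0.23 at week 4, and differently numbered ones at -0.21 to 0.09. At week 5 the same-numbered values were -0.00081 and 0.12, and the others -0.16 to 0.16. Each group was centred first, which forces the correlations to balance around 0. They therefore cannot decide whether the numbers pair the samples. With 2 PBOO samples at week 5, FPKM of unknown depth and RT1 genes of near-identical sequence, single values have limited precision.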
